A study of Sus scrofa with 22 samples.

Results

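MYL4, TNNT2 and ACTC1 encode contractile proteins best known from the embryo and the heart, and they were measured here in pigs from late gestation to 188 days of age. The members were all probe sets that the array annotation gives to 1 of these 3 gene symbols and to no other. Each gene had 1 such probe set, so the members were 3 of 23999 probe sets and 3 of 6765 named genes. The genes were selected on their stage pattern in these same signals. Their levels and differences between stages are therefore given as a description, without a test.

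All animals were offspring of German Landrace gilts that received an adequate protein diet during gestation, and no other genotype, agent or diet was among the 22 samples. The groups were 6 fetuses at 94 days after conception (94 dpc), 6 animals at 1 day after birth (1 dpn), 6 animals at 28 days (28 dpn) and 4 animals at 188 days (188 dpn). Offspring of 3 gilts were collected per stage, so some animals of a stage shared a dam, and the dam of each animal and its sex are not given in the sources used here. Every sample label names liver, whereas the series title names muscle. Each library was 1 array, and a signal is the linear intensity of a probe set.

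A sarcomere, the contractile unit of striated muscle, slides thick filaments of myosin along thin filaments of actin. Many of its proteins come from small gene families whose members are exchanged as skeletal muscle matures, and skeletal muscle of the embryo uses several genes that later remain active mainly in the heart. MYL4 is the essential myosin light chain of embryonic muscle and of the cardiac atria, TNNT2 is the cardiac troponin T that anchors the troponin complex to tropomyosin on the thin filament, and ACTC1 is cardiac alpha-actin, the core of the thin filament.

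The arrays carried strong signals of skeletal muscle. The summed signal of 10 measured skeletal muscle markers (of 12 listed) ran from 226118 to 614442 over the 22 arrays. That of 5 measured heart-defining markers (NPPA, NPPB, TNNI3, RYR2 and GATA4, of 11 listed) ran from 247 to 863, and 15 measured liver markers (of 16) summed to between 2256 and 60701. Background, a signal of 69.7, was set from 23 controls without a target in these samples, as their 95th percentile. Of the heart-defining markers TNNI3 was above it on 19 of the 22 arrays, NPPB on 16, NPPA and GATA4 on 7 each and RYR2 on 3, so much of their summed signal lay near background. On 4 of the 6 arrays of 1 dpn the ratio of 5' to 3' signal of GAPDH, a measure of transcript integrity, was 0.140 to 0.332. It was 1.14 and 1.15 on the other 1 dpn arrays, replicates 1 and 6, and 0.731 to 1.26 at the other stages.

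MYL4, the light chain of the thick filament, stood high in every fetus and low in every animal after birth. At 94 dpc its signal ran from 5319 to 9212, with a median of 6759 (mean 6813, SD 1452, n = 6). At 1 dpn it ran from 127 to 294, with a median of 218 (mean 215, SD 84.8, n = 6), and at 28 dpn from 217 to 336, with a median of 298 (mean 293, SD 43.7, n = 6). The 4 animals of 188 dpn gave 464, 144, 364 and 256 (mean 307, SD 138). No animal after birth overlapped with a fetus, and the ranges of the 3 stages after birth overlapped with one another. In order of their means the stages ran 94 dpc, 188 dpn, 28 dpn and 1 dpn, and only the first neighbours in that order were apart. All 22 values lay above background, so MYL4 remained measurable after birth. In these bulk samples fewer cells of a type and less RNA per cell cannot be told apart.

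**Figure D1:**
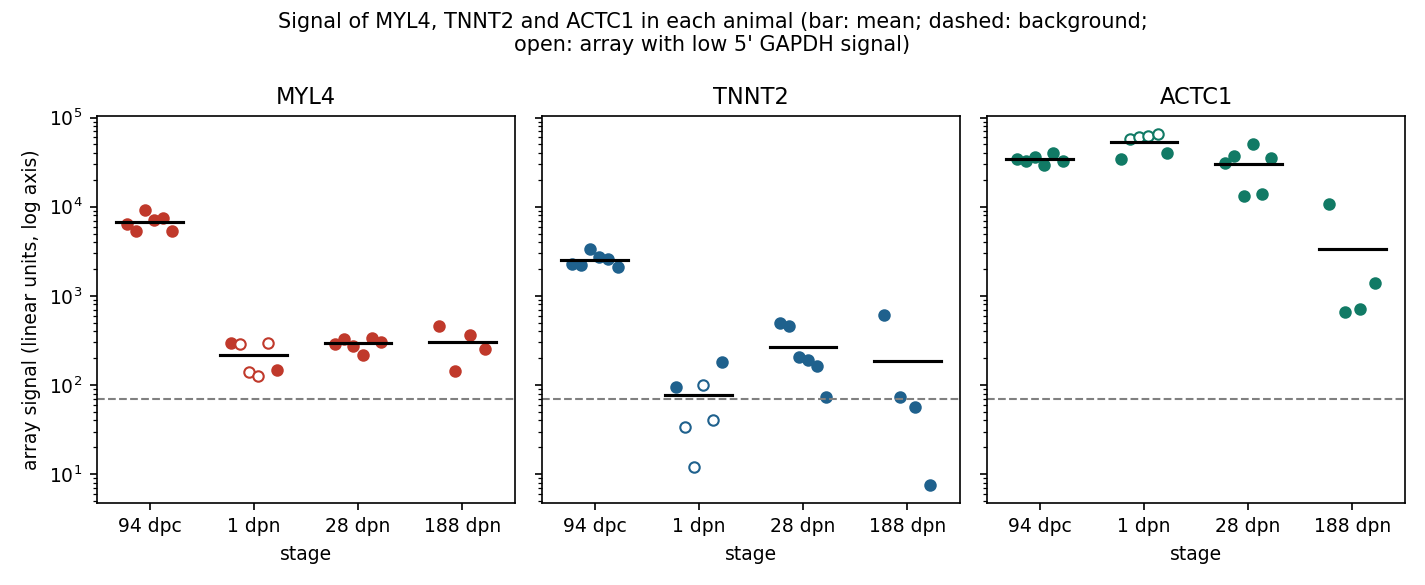
Signal of the MYL4, TNNT2 and ACTC1 probe sets in each animal (log axis) against stage, with the stage mean as a bar, background as a dashed line and open circles for the 4 arrays of 1 dpn with low 5' GAPDH signal. MYL4 and TNNT2 separate the fetuses from all later animals, whereas ACTC1 is low in the 188 dpn animals, where replicate 1 lies at 10812 above the other 3.

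On the scale log2(signal + 16), used for all differences here and understating those of dim genes, MYL4 differed between 94 dpc and 1 dpn by -4.95 (SE 0.26). This was place 4 among 23999 probe sets ordered from the largest fall. From 1 dpn to 28 dpn its difference was 0.49 (SE 0.26), and from 28 dpn to 188 dpn it was -0.04 (SE 0.29), a sign that turned when each array was centred on its median (0.17) or quantile normalized (0.12). Over the whole span the difference was -4.49 (SE 0.29), place 34 from the largest fall. The low level was thus reached by the first day after birth, and later stages stayed within overlapping ranges. No stage was sampled between 94 dpc and 1 dpn, the interval called across birth below. The time of the change within it is therefore not resolved. Of all probe sets, 11.2% had every 1 dpn animal below every fetus, and 21.4% had every 188 dpn animal below every fetus. MYL4 and TNNT2 belonged to both sets and ACTC1 to the latter, and nothing is read from this, since the choice of the genes used these contrasts.

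TNNT2, the troponin T of the thin filament, also separated the fetuses from all other animals, but it varied far more after birth. At 94 dpc its signal ran from 2132 to 3335, with a median of 2434 (mean 2541, SD 452, n = 6). At 1 dpn it ran from 11.9 to 182, with a median of 67.4 (mean 77.1, SD 62.2, n = 6), and 3 of the 6 animals were above background. At 28 dpn it ran from 74.0 to 502, with a median of 200.2 (mean 266, SD 173, n = 6), all above background. At 188 dpn the 4 animals gave 603, 72.8, 56.0 and 7.49 (mean 185, SD 280), and 2 of them were above background. The highest animal of 188 dpn, replicate 1, exceeded all animals of 1 dpn and 28 dpn, whereas the other 3 lay below the lowest animal of 28 dpn. The stages ran 94 dpc, 28 dpn, 188 dpn and 1 dpn by their means, and the ranges of the 3 later stages overlapped throughout.

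The log2 difference of TNNT2 from 94 dpc to 1 dpn was -5.05 (SE 0.58), place 3 from the largest fall. It was 1.64 (SE 0.58) from 1 dpn to 28 dpn, -1.28 (SE 0.65) from 28 dpn to 188 dpn and -4.69 (SE 0.65) over the whole span, place 25. At 1 dpn and 188 dpn 5 of the 10 values lay below background, and the size of the low TNNT2 level there is not resolved. With the 2 even arrays alone standing for 1 dpn, the first difference was -4.09 and the second 0.69. Without replicate 1 of 188 dpn the mean of that stage was 45.4 (range 7.49 to 72.8), the difference from 28 dpn was -2.17 and that from 94 dpc was -5.57. Without replicate 4, the animal at 7.49, these differences were -0.59 (SE 0.63) and -4.0.

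ACTC1, the actin of the thin filament, was bright until 28 dpn and low at 188 dpn, a later course than that of MYL4 and TNNT2. At 94 dpc its signal ran from 29275 to 40045, with a median of 33374 (mean 34173, SD 3662, n = 6). At 1 dpn it ran from 33939.7 to 65736, with a median of 59207 (mean 53595, SD 13101, n = 6), and at 28 dpn from 13328 to 50277, with a median of 33369 (mean 30214, SD 14327, n = 6). The 4 animals of 188 dpn gave 10812, 652, 721 and 1378 (mean 3391, SD 4959). Every animal of 188 dpn lay below every animal of the 3 earlier stages, while the ranges of those earlier stages overlapped. At 28 dpn replicates 3 and 5, at 13328 and 14001, lay apart from the other 4, which ran from 31066 to 50277. The order of the means was 1 dpn, 94 dpc, 28 dpn and 188 dpn, and only the last neighbours in that order were apart.

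The log2 difference of ACTC1 was 0.61 (SE 0.48) from 94 dpc to 1 dpn and -0.95 (SE 0.48) from 1 dpn to 28 dpn. From 28 dpn to 188 dpn it was -4.03 (SE 0.54), the largest fall of the 23999 probe sets in that step, and over the whole span it was -4.37 (SE 0.54), place 41. Without replicate 1 of 188 dpn these last values were -4.94 and -5.27, and the mean of the stage was 917 (range 652 to 1378). Of all probe sets, 8.13% had every 188 dpn animal below every 28 dpn animal, ACTC1 among them, and 3.05% had every 28 dpn animal below every 1 dpn animal, with 0 of the 3 members among those. Actin genes are closely alike in sequence, the annotation held no probe set with ACTA1 as its single symbol, and the specificity of the ACTC1 probe set was not tested.

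The high ACTC1 at 1 dpn went with the arrays of low 5' GAPDH signal. Those 4 arrays gave 57803 to 65736 (mean 61771), and the 2 even arrays gave 33939.7 and 40546 (mean 37243), beside a fetal range of 29275 to 40045. With the even arrays alone the difference from 94 dpc to 1 dpn was 0.13 and that from 1 dpn to 28 dpn was -0.46. The 6 arrays fell into separate clusters of 4 and 2 on the GAPDH ratio, so no correlation over all 6 is given. Among the 4 arrays of low 5' signal the ratio and ACTC1 had r = -0.87, a description with no test at n = 4. MYL4 had means of 220.2 on the even arrays and 212 on the others, and TNNT2 had 138 and 46.5. The split was not particular to ACTC1. Summed skeletal muscle markers were 298956 and 314822 on the even arrays and 372233 to 439203 on the other 4. The highest signal of an array was 54177 and 65550 on the even arrays and 81441 to 102091 on the others. The part of transcript integrity in these differences was not tested beyond these values.

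**Figure D2:**
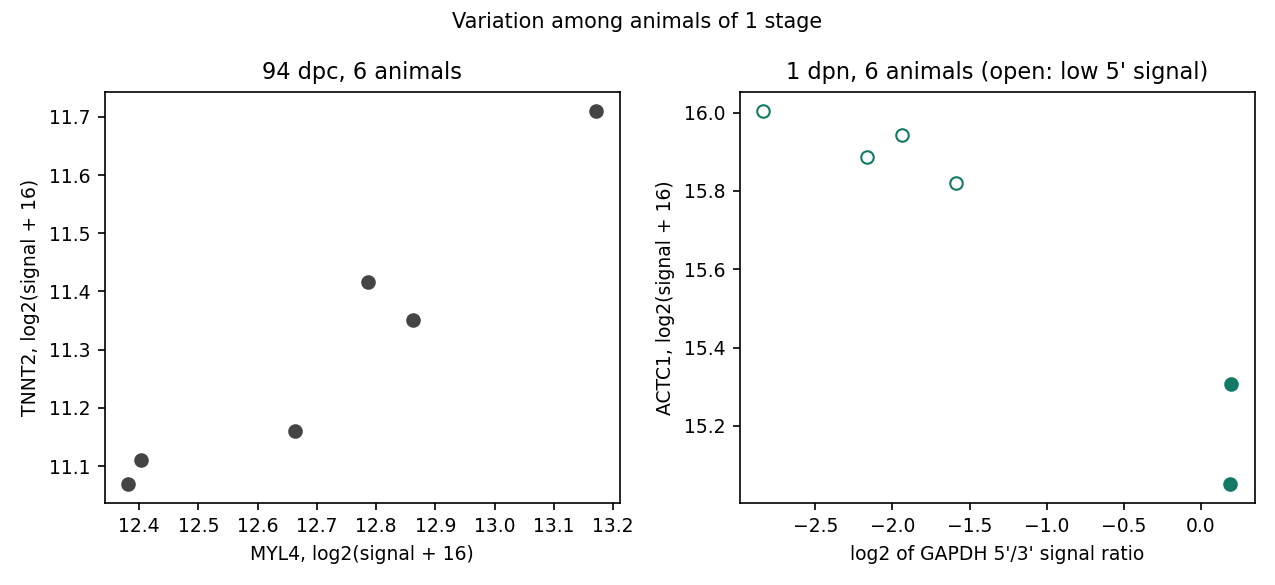
Left, TNNT2 against MYL4 in the 6 fetuses of 94 dpc, both as log2(signal + 16); right, ACTC1 as log2(signal + 16) against the log2 ratio of 5' to 3' GAPDH signal in the 6 animals of 1 dpn, with open circles for low 5' signal. The fetuses with more MYL4 had more TNNT2 (r = 0.96), and the 4 arrays of low 5' signal, at 57803 to 65736, lie above the 2 even arrays in ACTC1.

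Variation among animals of 1 stage was not used to choose the genes. Among the 6 fetuses MYL4 and TNNT2 varied together (Pearson r = 0.96, exact permutation p = 0.00833; Spearman rho = 0.94, exact permutation p = 0.0167). After Benjamini-Hochberg adjustment over 9 pairs of members and stages neither passed (adjusted p = 0.075 and 0.15, exact permutation tests). Without the 2 fetuses farthest from the median of MYL4, r was 0.86 (n = 4). The other pairs at 94 dpc had r = 0.43 for MYL4 and ACTC1 (exact permutation p = 0.394, adjusted p = 0.90) and 0.26 for TNNT2 and ACTC1 (exact permutation p = 0.608, adjusted p = 0.91). At 28 dpn the 3 pairs had r between -0.42 and 0.11, with exact permutation p-values from 0.400 to 0.911. At 1 dpn no pooled r is given because of the clusters named above, and 188 dpn had too few animals. The animals with high TNNT2 at 28 dpn, replicates 1 and 2 at 502 and 458, were not those with low ACTC1. Littermates among these animals could share levels, and the sources used here do not show which they were.

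In the fetuses ACTC1 was higher where the GAPDH ratio, which ran up to 1.25 there, was higher (r = 0.81, exact permutation p = 0.025, and rho = 0.94, exact permutation p = 0.0167). This relation did not pass adjustment over 9 relations (adjusted p = 0.113 and 0.15, exact permutation tests). Its sign was opposite to that among the 4 arrays of low 5' signal at 1 dpn (r = -0.87). Without the 2 fetuses farthest from the median ratio, r was 0.72 (n = 4). For MYL4 and TNNT2 in the fetuses r was 0.55 and 0.42 (exact permutation p = 0.233 and 0.397), and at 28 dpn r for the 3 genes ran from -0.39 to 0.66, with exact permutation p-values from 0.181 to 0.867.

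Spread within stages set the 3 genes apart from one another. Differences between stages made up 96.3% of the log2 variance of MYL4 over the 22 arrays, 80.9% of that of TNNT2 and 82.4% of that of ACTC1, against 39.7% for the median probe set. Nothing is read from that excess over the median, since the genes were chosen on their stage pattern in these signals. The SD within stages, pooled over the 4 stages on the log2 scale, was 0.45 for MYL4, 1.09 for TNNT2 and 0.90 for ACTC1, against 0.52 for the median probe set. By this pooled SD TNNT2 varied more between animals of a stage than 99.3% of probe sets and ACTC1 more than 96.7%, while MYL4 exceeded 40.1%. The log2 SD of TNNT2 was 0.24, 1.02, 0.94 and 1.96 over the stages in order of age. At 1 dpn 3 of its 6 values lay above background and at 188 dpn 2 of 4, so values near background enter its pooled SD. The log2 SD of ACTC1 was 0.15, 0.39, 0.79 and 1.87, the last with replicate 1 far above the other animals. In the fetuses all 3 were tight, with a coefficient of variation of 21.3% for MYL4, 17.8% for TNNT2 and 10.7% for ACTC1. At 188 dpn it was 44.9%, 152% and 146%, and without replicate 1 of that stage 43.2%, 74.6% and 43.7%.

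The myosin light chains other than MYL4 did not share its course. From 94 dpc to 1 dpn 3 of the 4 measured genes rose, namely MYL3, MYL1 and MYLPF, and 0 fell (also 0 at an unadjusted limma p under 0.05), while MYL2 did not pass the test. Over all named genes 17.4% were called higher and 23.9% lower in that step. MYL3, the essential light chain of slow and ventricular muscle, rose from 5051 (SD 2042) to 16112 (SD 5128; log2 1.71, SE 0.35, n = 6 and 6, limma adjusted p = 0.000668). MYL1, the essential light chain of fast fibres, rose from 45260.1 to 67379 (log2 0.55, SE 0.15, limma adjusted p = 0.00798). MYLPF, the regulatory light chain of fast fibres, rose from 42012 to 63438 (log2 0.56, SE 0.16, limma adjusted p = 0.00798). With the even 1 dpn arrays alone MYL1 and MYLPF lost their call (log2 0.16 and 0.13), and under quantile normalization their sign turned (log2 -0.05 and -0.02). Over the whole span the same 3 genes were called higher and none lower, calls that none of them kept under quantile normalization, and that MYL3 also lost without single animals (replicate 4 or 6 of 94 dpc, or replicate 1, 3 or 4 of 188 dpn). MYL3 fell again from 28 dpn to 188 dpn, from 28821 (SD 10533) to 12234 (SD 7002; log2 -1.35, SE 0.39, n = 6 and 4, limma adjusted p = 0.0272). That call ended without replicate 2 or 4 of 28 dpn and without replicate 2 or 3 of 188 dpn, the weakest value being that without replicate 2 of 188 dpn (log2 -0.93). MYL2 was called higher from 1 dpn to 28 dpn (log2 0.62, SE 0.19, limma adjusted p = 0.0192). Quantile normalization and median centring ended that call (0.43 each). Over the whole span MYL2 did not pass (0.53, limma adjusted p = 0.0528), but several settings called it higher, median centring among them (0.80). From 94 dpc to 1 dpn it was called higher after median centring (0.61), with array weights (0.46) and without replicate 6 of 1 dpn (0.49).

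**Figure D3:**
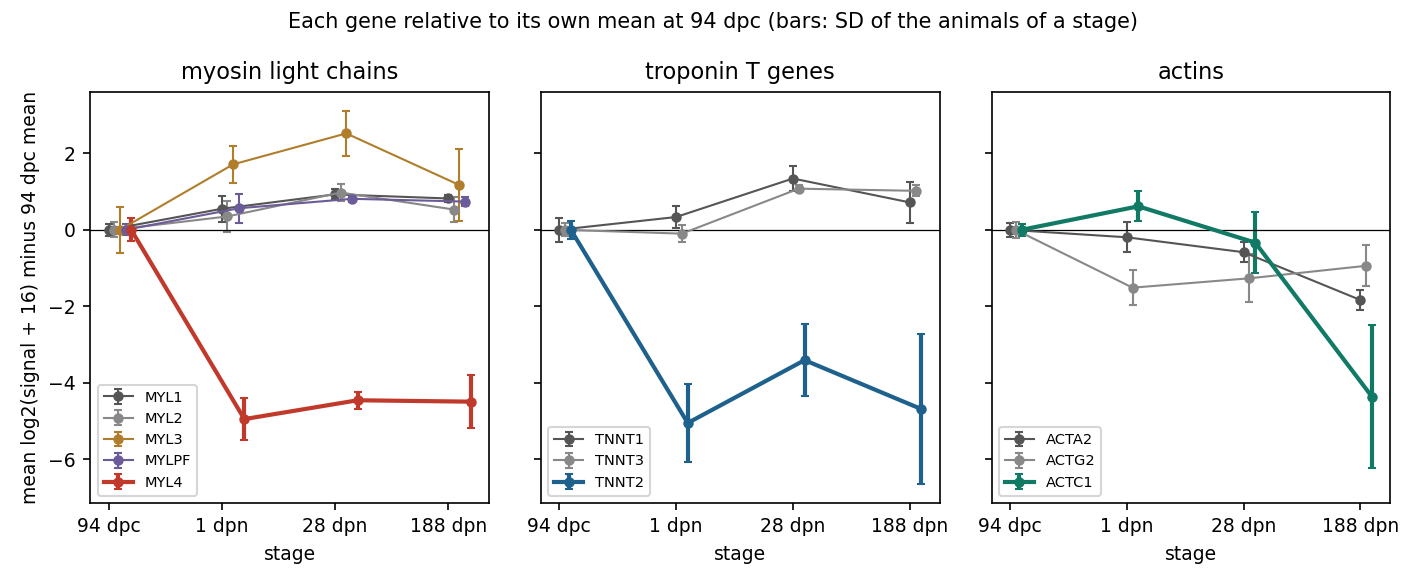
Mean of log2(signal + 16) at each stage minus the gene's own mean at 94 dpc, with the SD over animals as bars, for MYL4 with 4 other myosin light chains, TNNT2 with the other troponin T genes, and ACTC1 with 2 smooth muscle actins. At 1 dpn MYL4 and TNNT2 lie at -4.95 and -5.05 beside 1.71 for MYL3 and 0.33 for TNNT1, and at 188 dpn ACTC1 lies at -4.37 beside -1.83 for ACTA2.

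The course of the other troponin T genes differed from that of TNNT2 as deposited. TNNT1, the slow-fibre form, gave 21634 (SD 4450), 27236 (SD 5496), 54965 (SD 11707) and 36583 (SD 12197) over the stages in order of age. It rose from 1 dpn to 28 dpn (log2 1.01, SE 0.22, n = 6 and 6, limma adjusted p = 0.00162) and did not pass in the neighbouring steps, although its difference of -0.62 from 28 dpn to 188 dpn was called lower with trended variances or bright probe sets only, and without replicate 6 of 28 dpn (-0.74) or replicate 4 of 188 dpn (-0.80). TNNT3, the fast-fibre form, gave 35544 (SD 4134), 33319.7 (SD 5233), 74640 (SD 4944) and 71927 (SD 7615), and it rose in the same step (log2 1.18, SE 0.14, limma adjusted p = 3.6e-06). With quantile normalization TNNT3 was called lower from 94 dpc to 1 dpn (log2 -0.64, limma adjusted p = 0.00488). Of 7 troponin genes other than TNNT2, 1 rose from 94 dpc to 1 dpn (TNNC2, the fast-fibre calcium sensor) and 0 fell, against 5 rising and 0 falling from 1 dpn to 28 dpn (falls at an unadjusted limma p under 0.05 were also 0 in both steps). The shares over all named genes were 17.4% higher and 23.9% lower in the first step, and 15.1% and 12.9% in the second. The call of TNNC2 ended with the even 1 dpn arrays (log2 0.19) and with quantile normalization (0.16), under which 0 of the 7 were called higher and 3 lower from 94 dpc to 1 dpn, TNNT3, TNNI1 (-0.79) and TNNC1 (-0.76). After median centring 3 were higher and 0 lower. The slow and cardiac calcium sensor TNNC1 rose from 1 dpn to 28 dpn (log2 1.20, SE 0.25, limma adjusted p = 0.0014), as did the slow inhibitory subunit TNNI1 (log2 1.16, SE 0.25, limma adjusted p = 0.00164). With the even arrays alone neither passed (log2 0.93 and 0.73). From 28 dpn to 188 dpn 0 of the 7 were called in limma, and at an unadjusted p under 0.05 0 were higher and 4 lower. TNNI3, the cardiac inhibitory subunit, was the only one of the 7 called lower over the whole span, from 291 (SD 93.1) to 140.1 (SD 166; log2 -1.54, SE 0.54, n = 6 and 4, limma adjusted p = 0.0289), and that call ended without replicate 1 of 188 dpn (log2 -1.17), replicate 2 of 188 dpn (-1.09) or replicate 5 of 94 dpc (-1.40), and with either other scaling of the arrays. At 188 dpn 2 of the 4 TNNI3 values lay above background.

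For the actins, ACTA1, the actin of adult skeletal muscle, had no probe set with its single symbol here. ACTA2, the actin of smooth muscle, fell from 28 dpn to 188 dpn, from 13149 (SD 2311) to 5515 (SD 938; log2 -1.25, SE 0.21, n = 6 and 4, limma adjusted p = 0.000425), in the same step in which ACTC1 was lower. Over the whole span ACTA2 fell by 1.83 on the log2 scale (SE 0.21, limma adjusted p = 2.8e-07). ACTG2, the enteric smooth muscle actin, fell from 94 dpc to 1 dpn instead, from 623 (SD 96.2) to 215 (SD 68.3; log2 -1.51, SE 0.27, n = 6 and 6, limma adjusted p = 0.00017).

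Over all 22 measured sarcomere isoform genes besides the members, of 40 listed, most calls between stages were rises. From 94 dpc to 1 dpn 7 were called higher and 2 lower (median log2 0.35), beside 17.4% of all named genes called higher, 23.9% lower and a median of -0.06. The 2 lower genes were TPM3 and MYBPC1, a myosin binding protein, which gave 24576 (SD 2224) and 11777.5 (SD 8662) at these stages. With the even arrays alone 2 were higher and 2 lower, with quantile normalization 3 and 7, and after median centring of the arrays 14 and 2. From 1 dpn to 28 dpn 13 were higher and 0 lower (median 0.83; 17 and 0 at an unadjusted limma p under 0.05), beside 15.1% and 12.9% of all genes (median 0.04). From 28 dpn to 188 dpn 0 were higher and 2 lower (median -0.11), namely TPM3 and MYL3 (1 and 7 at an unadjusted limma p under 0.05), beside 5.01% and 11% (median -0.10), and after median centring 1 was higher and 1 lower. The 2 lower genes became 6 without replicate 6 of 28 dpn, 4 without replicate 4 of 188 dpn, and 1 without replicate 2 or 4 of 28 dpn or replicate 2 or 3 of 188 dpn. Over the whole span 15 were higher and 2 lower (median 0.79), beside 18.5% and 27.1% (median -0.08), and with quantile normalization 5 were higher and 1 lower. The 2 lower genes became 1 without replicate 5 of 94 dpc or replicate 1 or 2 of 188 dpn. These counts use the brightest probe set of a gene, and others differed. From 94 dpc to 1 dpn that of TPM2 gave log2 -0.18 without a call, and its others gave 1.60, 2.14 and -0.47. Those at 1.60 and 2.14 were called (limma adjusted p = 1.8e-06 and 1.3e-07). The latter was called lower in each later step (-0.83 and -1.60, limma adjusted p = 0.00541 and 0.000128). The brightest of TTN gave 0.34 without a call, and its other 1.91 (limma adjusted p = 8.4e-07).

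The largest rise over the whole span among these genes was that of MYH2, the fast oxidative myosin heavy chain, from 6943 (SD 1342) to 79859 (SD 8162; log2 3.54, SE 0.31, n = 6 and 4, limma adjusted p = 9e-09). The thin filament cap TMOD4 followed, from 3870.4 (SD 749) to 35678 (SD 3629; log2 3.22, SE 0.18, limma adjusted p = 3.4e-11). The slow and cardiac myosin heavy chain MYH7 did not pass with all arrays as deposited (log2 0.48, 0.75, -0.59 and 0.64 in the order above). From 1 dpn to 28 dpn it was called higher with the even 1 dpn arrays (log2 1.48, limma adjusted p = 0.0103), with the GAPDH ratio as a covariate (1.27), with bright probe sets only, and without replicate 4 of 1 dpn or replicate 6 of 28 dpn (both 0.87). It was also called higher from 94 dpc to 1 dpn (0.74) and over the whole span (0.91) after median centring, and without replicate 6 of 1 dpn (0.78 and 0.64). The embryonic and perinatal heavy chains MYH3 and MYH8 had no probe set with a single symbol here. TPM3, a tropomyosin of slow fibres with forms in other cells, was the sarcomere gene that fell both across birth and after 28 dpn, from 3892 (SD 365) at 94 dpc to 1734 (SD 351) at 1 dpn (log2 -1.18, SE 0.21, limma adjusted p = 0.000129) and from 2405 (SD 377) to 985 (SD 442) from 28 dpn to 188 dpn (log2 -1.37, SE 0.23, limma adjusted p = 0.000488). Of the other TPM3 probe sets 1 gave log2 -1.38 and -1.19 in the same comparisons (limma adjusted p = 0.000104 and 0.00465) and 1 gave 0.05 and -0.71 without a call, so 2 of the 3 were called in both.

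**Figure D4:**
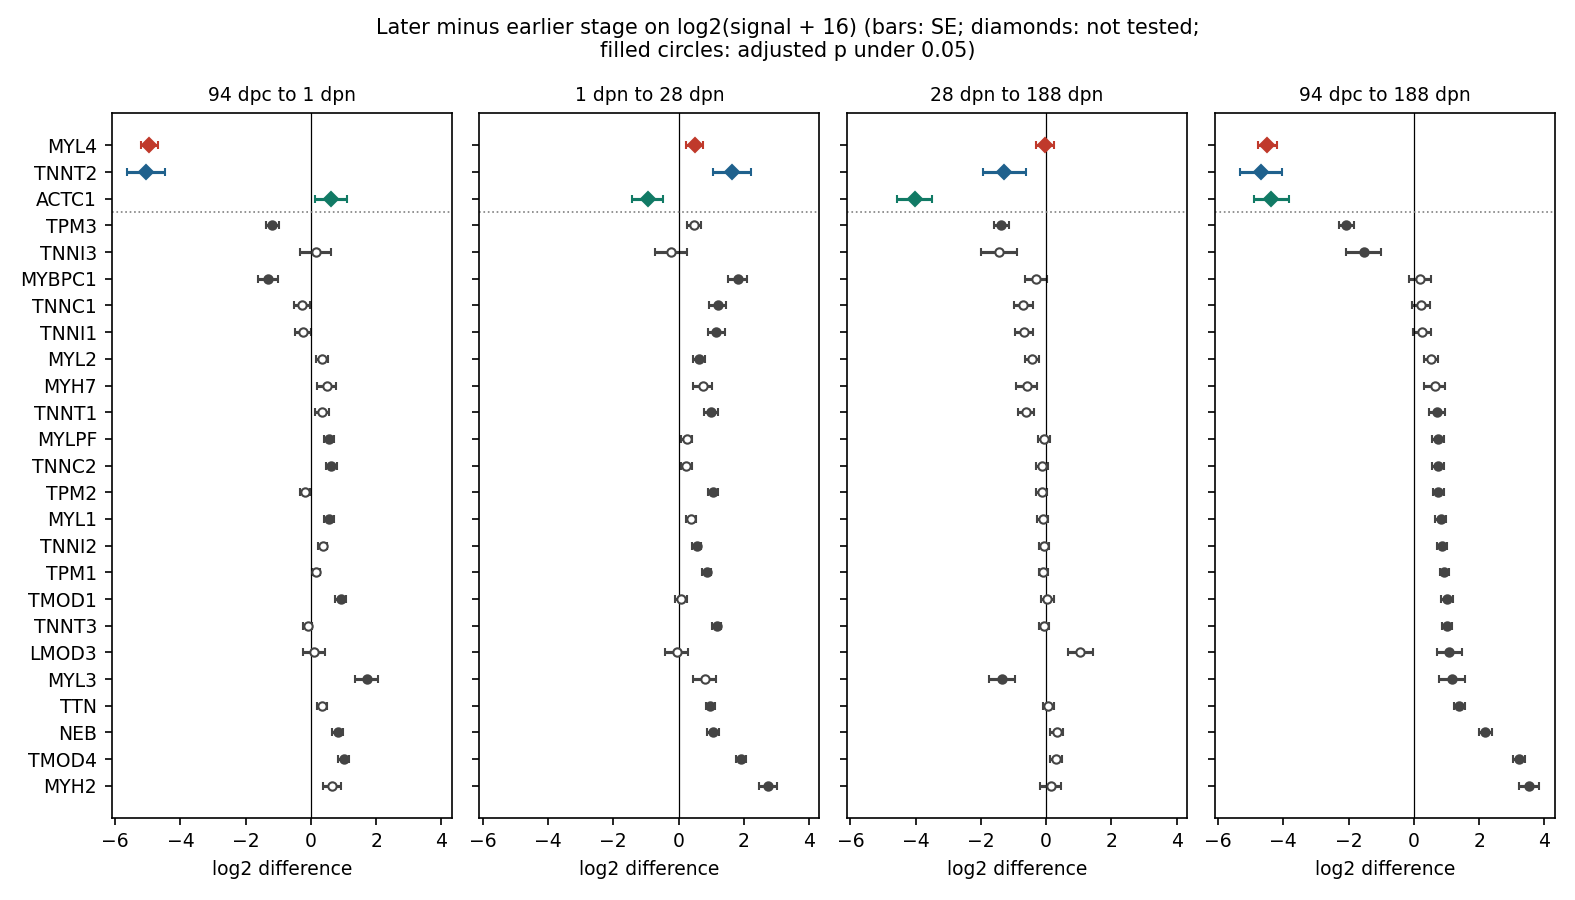
Log2 difference (later minus earlier stage) with its SE for MYL4, TNNT2 and ACTC1 (diamonds, not tested) and 22 other sarcomere isoform genes (circles, filled where limma's adjusted p was under 0.05) in each comparison. The members lie far to the left of the other sarcomere genes in the whole-span panel, at -4.49, -4.69 and -4.37, where TPM3 at -2.07 is the lowest of the others. Nothing is read from that distance, since the members were chosen on their stage pattern in these signals.

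Genes of fetal and regenerating muscle, of which 5 of 20 listed were measured, fell with MYL4 and TNNT2 across birth in 3 cases and rose in 0 (also 3 and 0 at an unadjusted limma p under 0.05). In that step 23.9% of all named genes were called lower and 17.4% higher. PEG3, an imprinted gene, fell from 379 (SD 50.5) to 72.6 (SD 51.4; log2 -2.42, SE 0.38, n = 6 and 6, limma adjusted p = 4e-05), where 4 of the 6 values at 1 dpn lay above background. The neural cell adhesion molecule NCAM1 fell from 436 (SD 71.4) to 133 (SD 25.5; log2 -1.61, SE 0.19, limma adjusted p = 1e-06), and the acetylcholine receptor subunit CHRNA1 fell by 1.07 on the log2 scale (SE 0.31, limma adjusted p = 0.0106). With the even 1 dpn arrays 2 of the 5 fell, and CHRNA1 lost its call with those arrays, with the GAPDH covariate or with quantile normalization. From 28 dpn to 188 dpn, the step of ACTC1, 2 of the 5 fell, NCAM1 and the intermediate filament gene VIM, beside 11% of all named genes. Under either other scaling 1 of the 5 fell.

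Of 17 measured regulators of muscle gene expression (of 38 listed), 3 rose and 8 fell from 94 dpc to 1 dpn, beside 17.4% and 23.9% of all named genes. After median centring 3 rose and 2 fell, with quantile normalization 3 and 7, and with the even 1 dpn arrays 2 and 8. The largest called differences in that step were rises of NFIC and PAX3 and falls of NFIB and CELF2. For PAX3 0 of the 6 fetal values lay above background. In the step from 28 dpn to 188 dpn 2 rose and 2 fell, beside 5.01% and 11%. The myogenic factor MYOD1 gave 2115 (SD 326) at 94 dpc and 1145 (SD 454) at 1 dpn, and it fell from 969 (SD 388) at 28 dpn to 347 (SD 107) at 188 dpn (log2 -1.40, SE 0.36, limma adjusted p = 0.0122). The splicing regulator RBFOX2 fell in the same last step from 2164 (SD 449) to 964 (SD 281; log2 -1.17, SE 0.25, limma adjusted p = 0.00346). MYF6, a myogenic factor of mature fibres, rose there from 1209 (SD 385) to 6119 (SD 1441; log2 2.34, SE 0.36, limma adjusted p = 0.000207), as did MEF2A (log2 0.99, SE 0.26, limma adjusted p = 0.0137).

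Markers of other cell types were counted in the same steps. For comparison, 23.9% of all named genes were called lower from 94 dpc to 1 dpn and 11% from 28 dpn to 188 dpn. The summed signal of 8 measured fibroblast markers (of 10) was 48888 to 68289 in the fetuses and 12050.4 to 33321 at the later stages, and 7 of the 8 fell from 94 dpc to 1 dpn, the step of MYL4 and TNNT2. Smooth muscle markers, 9 measured of 11, summed to between 29042 and 34973 at 94 dpc, 16552 and 30968 at 1 dpn, 18422 and 26393 at 28 dpn, and 9253 and 13714 at 188 dpn. Of those 9, 4 fell from 94 dpc to 1 dpn (CALD1, ACTG2, TPM4 and MYL9) and 3 from 28 dpn to 188 dpn, the step of ACTC1. In that last step 4 of the 8 fibroblast markers fell, as did 2 of 5 measured erythroid markers (of 11), or 1 of 5 under either other scaling. The liver markers were at 7892 to 60701 in the fetuses and 2256 to 15257 later, and across birth 3 of the 15 fell and 1 rose, beside 23.9% and 17.4% of all named genes. The part of these markers in the member differences was not tested. The 5 heart-defining markers were at 430.3 to 653 in the fetuses and 363 to 742 at 1 dpn, with 0 of 5 called in limma in that step (also 0 at an unadjusted p under 0.05). From 28 dpn to 188 dpn 0 of 5 were called as well, and at an unadjusted p under 0.05 0 were higher and 2 lower.

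**Figure D5:**
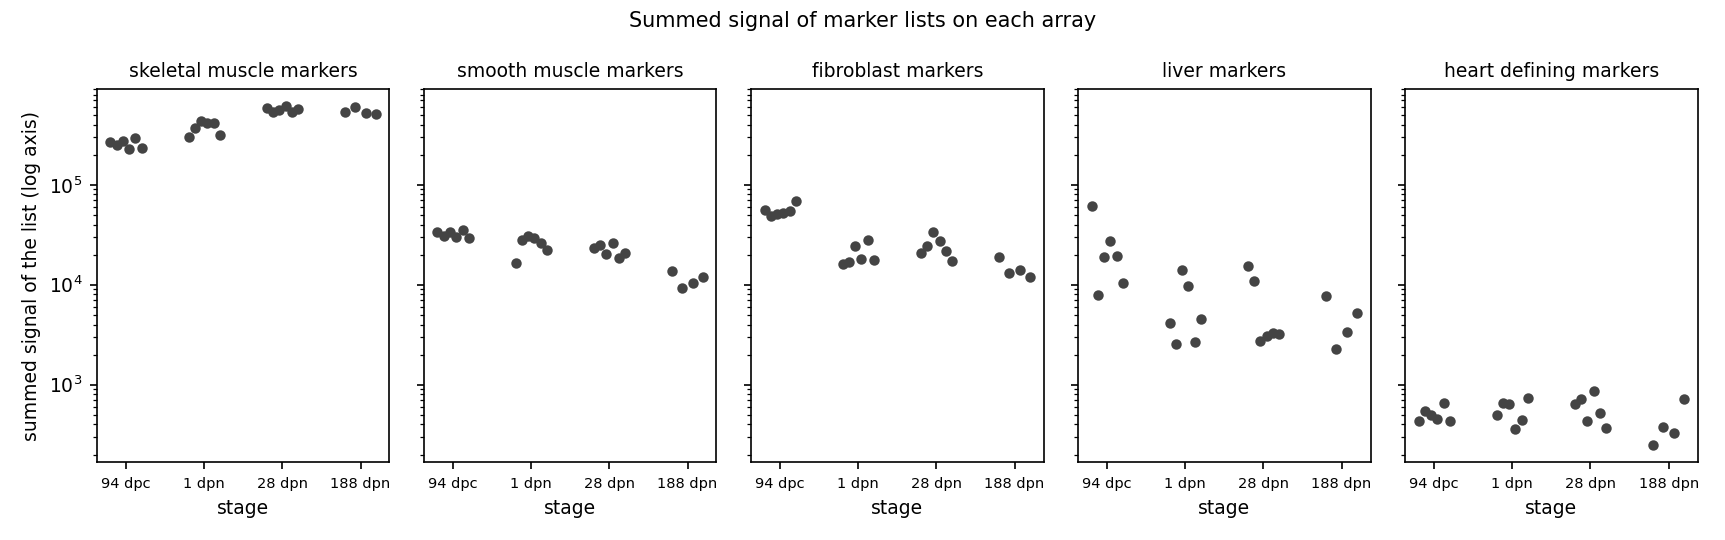
Summed signal of the measured genes of 5 marker lists on each array (log axis) by stage. Fibroblast sums separate the fetuses (48888 to 68289) from later animals, smooth muscle sums are lowest at 188 dpn (9253 to 13714), and heart-defining sums stay between 247 and 863 at all stages.

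Replicate 1 of 188 dpn, the animal with the highest TNNT2, ACTC1 and MYL4 of its stage, also had the highest fibroblast sum of the stage (18918 against 12050.4 to 13955), the highest smooth muscle sum (13714 against 9253 to 12076) and the highest liver sum (7753 against 2256 to 5198). Its heart-defining sum was the lowest (247 against 327 to 724). Its array correlated with the mean of the other 188 dpn arrays at 0.959, with the mean of 28 dpn at 0.948 and with that of 94 dpc at 0.886. The other arrays of 188 dpn had 0.953 to 0.958, 0.935 to 0.938 and 0.856 to 0.869. These values run over probe sets, which are not independent replicates.

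Of a broader list of heart genes, 9 measured of 18, 2 rose and 0 fell from 94 dpc to 1 dpn (also 2 and 0 at an unadjusted limma p under 0.05, and 1 and 0 with quantile normalization or the even arrays), while 1 rose and 1 fell from 28 dpn to 188 dpn. Among all named genes 17.4% rose and 23.9% fell in the first of these steps, and 5.01% and 11% in the last. CASQ2, the calsequestrin of heart and slow fibres, fell in the last step from 508 (SD 236) to 90.3 (SD 35.8; log2 -2.23, SE 0.32, n = 6 and 4, limma adjusted p = 0.000114). At 188 dpn 2 of the 4 CASQ2 values lay above background, so the size of that fall is not resolved. ANKRD1, a stretch-responsive ankyrin repeat protein, rose in that step from 860 (SD 666) to 12569 (SD 7196; log2 3.88, SE 0.67, limma adjusted p = 0.000698).

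The genes whose log2 values followed each member most closely over the 22 arrays were sought among 5542 named genes brighter than background, as a description of points that share stage, array scaling and RNA quality. For MYL4 they were EFEMP2 (Pearson r = 0.95), ING4 (0.94), SERTAD2 (0.94), GPRASP2 (0.94) and CDO1 (0.93). EFEMP2 had mean signals of 2362, 664, 820 and 722 over the stages in order of age, the same single step at birth on a smaller scale. For TNNT2 they were MDFIC (0.94), CALU (0.92), WDR3 (0.92), CREB3L2 (0.91) and GUSB (0.91). MDFIC had means of 902, 180 and 384 up to 28 dpn and 233 at 188 dpn, with the same dip at 1 dpn. For ACTC1 they were SLC38A10 (0.94), CLEC1A (0.94), ENG (0.92), ADGRE5 (0.91) and ACTA2 (0.89). SLC38A10 had means of 586, 402, 381 and 75.2, low at the last stage. By rank correlation 1, 2 and 0 of these 5 remained among the 5 closest genes of MYL4, TNNT2 and ACTC1. Between the members, r over the 22 arrays was 0.87 for MYL4 and TNNT2 (Spearman rho 0.71), 0.20 for MYL4 and ACTC1 (rho -0.21) and 0.29 for TNNT2 and ACTC1 (rho -0.09), so for both pairs with ACTC1 the sign depended on the measure.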

How the data were processed

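Total RNA of 22 samples was hybridised as biotinylated cRNA to an Affymetrix porcine array, per the labels' protocols. The authors deposited linear intensity values. The submitters' processing notes name GCOS 1.1.1. Every array had the same mean of 500.1 after trimming 2% at each end, so they had been scaled. Probe sets were named by the platform annotation where it gave 1 symbol (10069 probe sets). Differences were computed here on log2(signal + 16) with limma 3.58.1 in R 4.3.3, with 1 mean per stage over all 22 arrays and no covariate. Benjamini-Hochberg adjustment ran over 23999 probe sets per comparison, and calls are at an adjusted p under 0.05. A gene was represented by its probe set of highest mean. The p-values treat animals as independent, and the number of arrays limits precision. The limma step was tested on simulated data. Correlations used exact two-sided permutation tests (scipy 1.17.1).

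The members and lists were chosen with earlier results of these data known. Named genes were 16 sarcomere and actin genes, up to 4 called genes with the largest difference per list and comparison, and the 5 genes most like each member. Lists of markers and regulators were counted in the same way. Alternatives were other scalings, a pseudocount of 1, other variance models, array weights, fewer stages, a filter on dim probe sets, the mean of a gene's probe sets, the GAPDH ratio as a covariate, the even 1 dpn arrays, and each animal left out.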

Additional observations from a re-analysis of the deposited data

Results flagged for a closer look

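At 188 dpn replicate 1 lay far above the other 3 animals in TNNT2 (603, against 7.49 to 72.8) and in ACTC1 (10812, against 652 to 1378). In both genes the gap to the next animal was large for the range of the stage by Dixon's test at the 95% level. Such a gap was found in 2 of 64 groups of animals tested over 16 genes, and chance gives it in about 1 of 20. The cause was not tested.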

How the results depend on the processing

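The 12 differences of the members moved by less than the SD within stages in all 72 values computed under other settings. Of 204 values, single animals left out included, 199 kept their sign. Leaving out single animals gave -4.94 to -3.60 for ACTC1 from 28 dpn to 188 dpn and -5.27 to -3.93 over the whole span, the lowest without replicate 1 of 188 dpn.

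Counts of sarcomere genes from 94 dpc to 1 dpn depended most on the setting. The 7 called higher became 3 with quantile normalization, 14 with median centring and 2 with the even 1 dpn arrays or the GAPDH covariate, and the 2 called lower became 7 with quantile normalization, where MYL1 and MYLPF reversed to log2 -0.046 and -0.020. From 28 dpn to 188 dpn the 0 called higher became 1 with median centring, array weights, the 2 stages alone, bright probe sets only, the even arrays or the covariate, and was 0 to 1 with single animals left out. The 2 called lower became 1 with median centring or the 2 stages alone, 4 with bright probe sets only, and 1 to 6 with single animals left out (6 without replicate 6 of 28 dpn). Over the whole span the 15 called higher became 5 with quantile normalization, and the 2 called lower became 1 with either scaling and 1 to 2 with single animals left out. The cause was not tested. Other scalings and the even arrays for the other lists, and the spread at 188 dpn without replicate 1, were added after seeing the data. Signals below background limit TNNT2 after birth, TNNI3 and CASQ2 at 188 dpn, PEG3 at 1 dpn and PAX3 at 94 dpc. No paired analysis was possible because the labels give no replicate numbers that groups share.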
